A study of Mus musculus with 12 samples.

Results

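Aminoacyl-tRNA synthetases attach each amino acid to its tRNA, and the products feed translation in the cytosol or in mitochondria. The 39 genes described here are 20 cytosolic synthetases, 16 mitochondrial synthetases (symbols ending in 2) and 3 scaffold genes of the multisynthetase complex, taken by gene symbol from a table of 55487 genes. All 39 passed the filter on low counts, which left 18134 genes for testing. They were measured by RNA-seq of polyadenylated RNA in mouse embryonic stem cells of the line E14 Tg2a. The 4 groups of 3 libraries were Pcbp1 knockout (KO) EpiLCs, control (WT) EpiLCs, naive KO cells and naive WT cells. EpiLCs, a cultured counterpart of the early postimplantation epiblast, had spent 48 h on fibronectin in N2B27 with 12 ng/ml bFGF, 20 ng/ml activin A and 1% KOSR. Naive cells were kept in serum-free N2B27 with LIF, 1 µM of the MEK inhibitor PD0325901 and 3 µM of the GSK3β inhibitor CHIR99021. All 12 libraries came from cells that had 3 passages in 2i, the medium with both inhibitors. Each genotype was represented by 3 independent clones, and the series text calls the controls Scr where the sample labels call them WT.

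Most cytosolic synthetases and their mitochondrial partners are encoded by separate nuclear genes, and 2 of the cytosolic genes here, Gars (glycine) and Kars (lysine), serve both compartments. Some cytosolic enzymes assemble with the scaffold proteins encoded by Aimp1, Aimp2 and Eef1e1 into the multisynthetase complex, while others stay free. Several synthetase genes are known targets of ATF4, a transcription factor that acts when amino acids are short and binds C/EBP-ATF response elements (CARE). Transcript counts give neither the amount of protein nor the charging of tRNA.

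The libraries held 27146744 to 42204511 counts. The 39 genes together took 0.692%, 0.69% and 0.694% of the counts in EpiLC KO and 1.006%, 0.808% and 0.989% in EpiLC WT. They took 0.712%, 0.814% and 0.7% in naive KO and 0.767%, 0.957% and 0.79% in naive WT. In CPM, a count scaled to library size after TMM normalization, Pcbp1 itself was at 250.3, 302 and 265 CPM in EpiLC KO, against 692, 512 and 591 CPM in EpiLC WT, and at 295, 302 and 303 CPM in naive KO, against 475, 418 and 474 CPM in naive WT. Where the Pcbp1 locus was edited is not given in the sources used here, so the remaining reads do not show remaining protein. Summed over 7 genes, naive pluripotency markers were at 212 to 304 CPM in EpiLC KO and 166 to 588 in EpiLC WT, against 4070 to 4380 in naive KO and 4380 to 4440 in naive WT. Summed over 5 genes, formative markers were at 2420 to 2490 CPM in EpiLC KO and 2020 to 3600 in EpiLC WT, against 81.4 to 152 in naive KO and 81.8 to 136 in naive WT. Both marker lists thus separated the 6 EpiLC libraries from the 6 naive ones, as labelled.

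Per kilobase of exon and averaged over the 12 libraries, all 20 cytosolic genes stood above the scaffold genes and every mitochondrial gene, but this order did not hold within each group. In EpiLC KO, Yars (25.6 CPM per kb), Cars (26.2) and Qars (26.9) lay under the scaffold gene Eef1e1 (27). In naive WT, Farsa (24.8 ± 2.47, SD, n = 3) lay under Eef1e1 (26.1 ± 2.55) and Lars2 (32.2 ± 17.8), where replicate 2 of Lars2 was far above the others. Averaged over the 12 libraries, the cytosolic genes spanned 166 CPM per kb (Gars) to 30.3 CPM per kb (Farsa, the alpha subunit of the phenylalanine enzyme), with Kars and Nars (asparagine) both at 117. Gars was at 121 ± 8.49 CPM per kb in EpiLC KO, 213 ± 55.0 in EpiLC WT, 144 ± 27.8 in naive KO and 187 ± 48.8 in naive WT (SD, n = 3 each). Ordered by mean, each of these groups overlapped its neighbour, while EpiLC KO lay wholly under EpiLC WT. The scaffold genes lay at 26.5 (Eef1e1), 21.1 (Aimp2) and 18.5 (Aimp1) CPM per kb. The mitochondrial genes spanned 24.9 CPM per kb (Lars2, leucine) to 2.21 (Mars2, methionine).

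The first comparison set KO against WT in EpiLCs. Of the 20 cytosolic synthetases, 12 fell and 0 rose in EpiLC KO, while 7.86% of all genes tested fell and 7.22% rose. The cytosolic median was a log2 fold change of -0.51, against 0 over all genes, with a range of -1.30 to 0.04. Of the 16 mitochondrial synthetases, 5 fell and 0 rose, with a median of -0.14 and a range of -0.96 to 0.55, and this count was 3 without any 1 of the EpiLC libraries other than WT replicate 2. None of the 3 scaffold genes passed by edgeR, DESeq2 or any other setting tried, and their median was -0.04, with 0 of 3 at an unadjusted p under 0.05. A fall in bulk RNA does not tell fewer cells with a transcript from less transcript per cell. Called means an edgeR quasi-likelihood adjusted p under 0.05 over all genes.

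**Figure D1:**
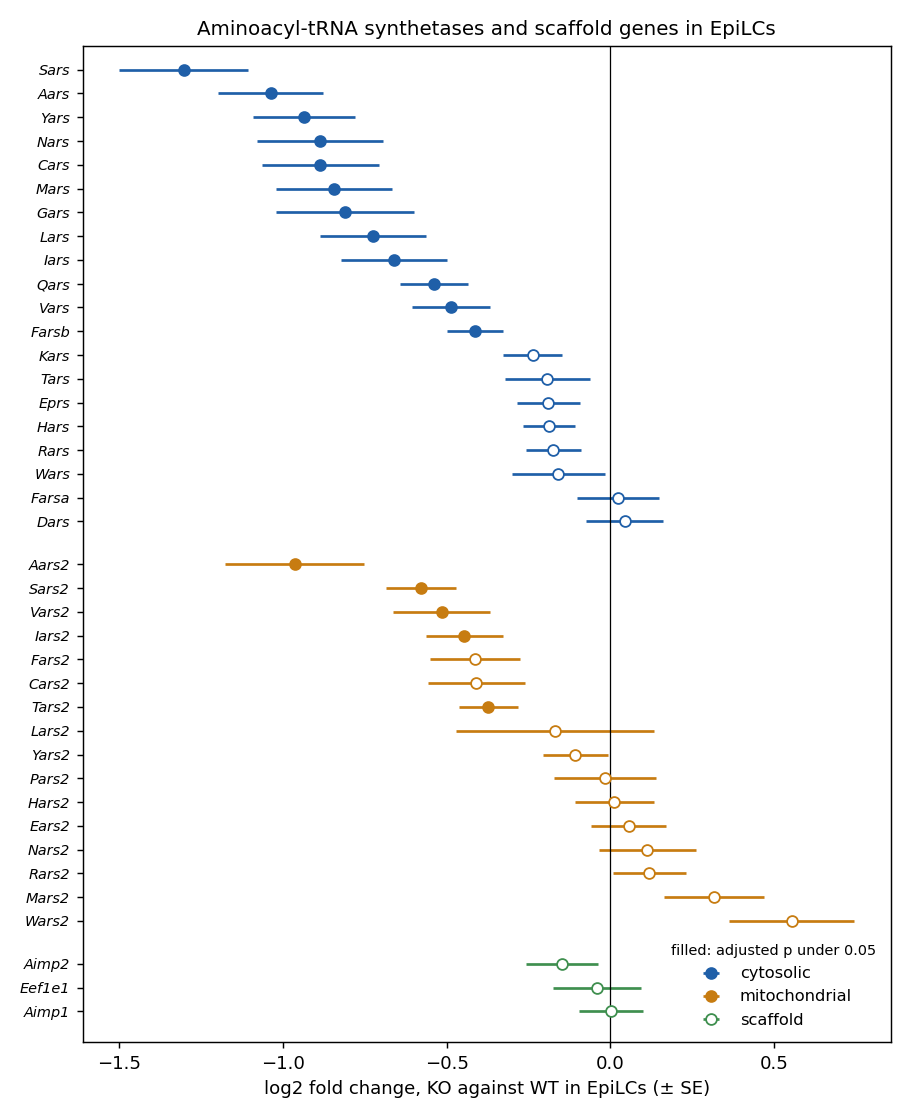
Log2 fold change of each gene, KO against WT in EpiLCs, with its standard error (3 libraries per group); filled points passed at an adjusted p under 0.05. The 12 cytosolic genes that passed lie between -1.30 and -0.41, the 5 mitochondrial ones between -0.96 and -0.37, and the scaffold genes between -0.15 and 0.00.

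Sars, the cytosolic seryl-tRNA synthetase (GRCm38 chromosome 3, 108424865 to 108445209, minus strand), had the lowest fold change. It was at 159.7, 169 and 174 CPM in the EpiLC KO libraries, against 506, 293 and 441 CPM in the EpiLC WT libraries. All KO libraries lay below all WT libraries, and WT replicate 2 lay nearest to them. Its log2 fold change was -1.30 ± 0.196 (standard error, 3 libraries in each group; edgeR adjusted p = 0.00144), which is 2.47-fold lower. The values after ± beside all further log2 fold changes are standard errors of the same kind.

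Aars (alanine; chromosome 8, 111033144 to 111057664, plus strand) was at 419, 416 and 449 CPM in EpiLC KO, against 1026, 692 and 917 CPM in EpiLC WT. Yars (tyrosine) was at 150.6, 151 and 155 CPM in EpiLC KO, against 347, 226 and 301 CPM in EpiLC WT. Both genes had non-overlapping groups with narrow KO values and wide WT values. Aars fell by 1.04 ± 0.161 (edgeR adjusted p = 0.00165) and Yars by 0.94 ± 0.155 (adjusted p = 0.00248). Of the exon bases of Aars, 15.1% are shared with Exosc6 and Gm24103, so part of its counting is uncertain.

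Cars (cysteine) was at 176, 157 and 185 CPM in EpiLC KO, against 397, 219 and 342 CPM in EpiLC WT, and fell by 0.89 ± 0.178 (edgeR adjusted p = 0.00669). Nars was at 416, 340.0 and 353 CPM in EpiLC KO, against 782, 536 and 731 CPM in EpiLC WT, and fell by 0.89 ± 0.192 (adjusted p = 0.00969). In both genes every KO library was below every WT library. Farsb, the beta subunit of the phenylalanine enzyme, was at 174, 174 and 185 CPM in EpiLC KO, against 247, 216 and 247 CPM in EpiLC WT, and fell by 0.41 ± 0.0860 (adjusted p = 0.00786). Its partner Farsa was at 138, 156 and 156 CPM in EpiLC KO, against 177, 123 and 142 CPM in EpiLC WT, with overlapping groups and a log2 fold change of 0.02 ± 0.125 (adjusted p = 0.923). The subunits of this 1 enzyme thus had different calls, and the difference between them was not tested.

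Gars and Vars (valine) completed the enzymes outside the complex that fell. Gars was at 389, 398 and 348 CPM in EpiLC KO, against 751, 467 and 776 CPM in EpiLC WT, and fell by 0.81 ± 0.211 (edgeR adjusted p = 0.0228). Vars was at 399, 354 and 376 CPM in EpiLC KO, against 616, 439 and 529 CPM in EpiLC WT, and fell by 0.49 ± 0.119 (adjusted p = 0.0178). Groups did not overlap for either gene, but both calls rested on the full set of libraries. The Gars call ended without any 1 of the EpiLC libraries other than WT replicate 2 (adjusted p from 0.0514 to 0.0786), and the Vars call without KO replicate 2 (0.0631), KO replicate 3 (0.0509) or WT replicate 1 (0.0612).

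Among the 8 synthetases of the multisynthetase complex, 4 fell, with a median log2 fold change of -0.39, and of the 12 others 8 fell, with a median of -0.65. Qars, the glutamine enzyme, was at 163, 191 and 176 CPM in EpiLC KO, against 274, 259.9 and 235 CPM in EpiLC WT. Mars, the methionine enzyme, was at 185, 189 and 198 CPM in EpiLC KO, against 420 (replicate 1), 239 (replicate 2) and 368 (replicate 3) CPM in EpiLC WT. Neither gene overlapped between groups; Qars fell by 0.54 ± 0.105 (edgeR adjusted p = 0.0057) and Mars by 0.84 ± 0.177 (adjusted p = 0.00818). Lars (leucine) was at 402, 364 and 342 CPM in EpiLC KO, against 679, 499 and 652 CPM in EpiLC WT, and fell by 0.72 ± 0.162 (adjusted p = 0.0116). Iars (isoleucine) was at 379, 342 and 341 CPM in EpiLC KO, against 629, 402 and 647 CPM in EpiLC WT, and fell by 0.66 ± 0.162 (adjusted p = 0.0179). The Iars call ended without KO replicate 2 (0.0563), KO replicate 3 (0.0580), WT replicate 1 (0.0622) or WT replicate 3 (0.0668).

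The remaining complex members were Kars, Rars (arginine), Dars (aspartate) and Eprs, which joins the glutamate and proline enzymes in 1 chain. Kars was at 570.1, 652 and 627 CPM in EpiLC KO, against 794, 676 and 710.4 CPM in EpiLC WT, a log2 fold change of -0.24 ± 0.0898 that did not pass (edgeR adjusted p = 0.0940). The log2 fold changes of Eprs, Rars and Dars were -0.19, -0.17 and 0.04, with edgeR adjusted p of 0.204, 0.190 and 0.846. Outside the complex, those of Tars (threonine), Hars (histidine) and Wars (tryptophan) were -0.19, -0.19 and -0.16, with edgeR adjusted p of 0.347, 0.132 and 0.487. Kars, Hars, Eprs and Wars were lower in every KO library without passing. With the 12 genes that fell, 16 of 20 cytosolic genes had all KO libraries under all WT libraries, against 17.2% of all genes tested. By catalytic fold, 7 of 9 class I and 5 of 10 class II enzymes fell, with Eprs, which holds both folds, left out.

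Aimp1, a scaffold gene, was at 98.4, 101 and 112 CPM in EpiLC KO, against 104, 112 and 95.3 CPM in EpiLC WT. Aimp2 was at 35.7, 38.8 and 39.01 CPM in EpiLC KO, against 46.3, 39.3 and 40.0 CPM in EpiLC WT, and Eef1e1 at 88.5, 82.7 and 92.5 CPM in EpiLC KO, against 70.2, 107 and 94.5 CPM in EpiLC WT. Groups overlapped for Aimp1 and Eef1e1. For Aimp2 all KO libraries lay below all WT libraries, though close together (39.01 against 39.3 CPM at the nearest). The log2 fold changes were 0.00 ± 0.0977, -0.15 ± 0.111 and -0.04 ± 0.134, with edgeR adjusted p of 0.991, 0.410 and 0.876. Of the exon bases of Aimp2, 29.4% are shared with Eif2ak1 on the other strand.

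**Figure D2:**
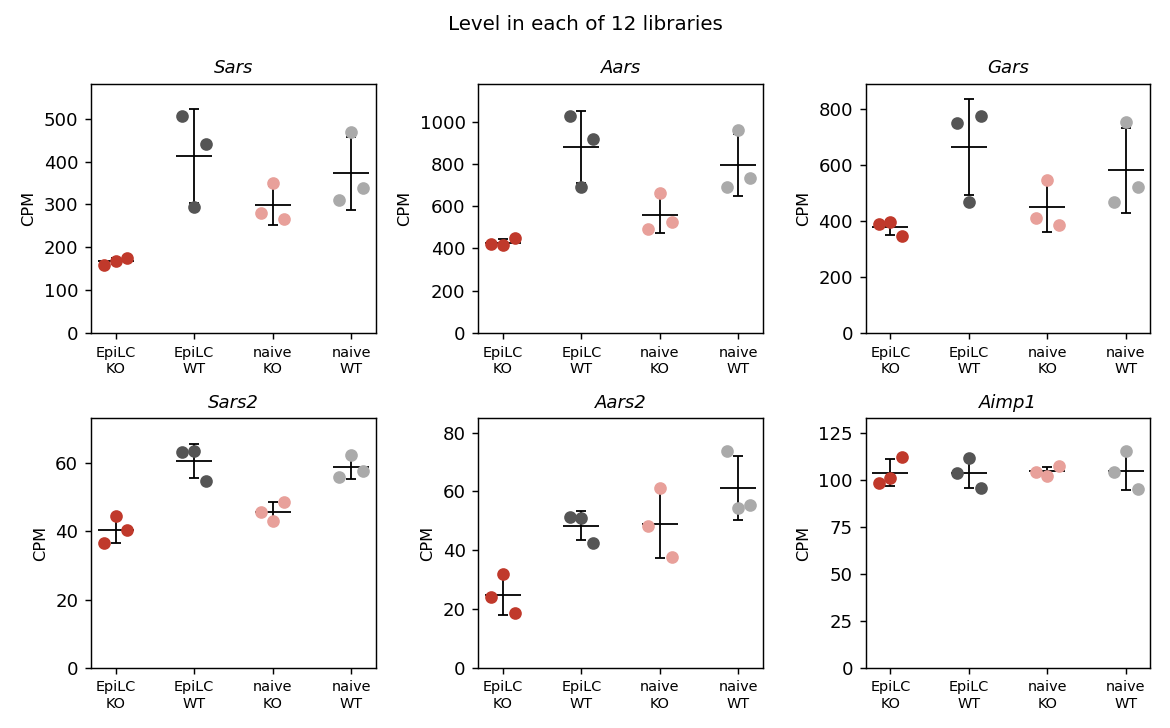
CPM of 6 genes in each of the 12 libraries (points), with the mean and SD of each group of 3 (bars); all axes start at 0. In EpiLC KO Sars lay between 159.7 and 174 CPM, against 293 to 506 in EpiLC WT, whereas the scaffold gene Aimp1 had overlapping groups.

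Of the mitochondrial enzymes, Aars2 (chromosome 17, 45506841 to 45520843, plus strand) had the lowest fold change. It was at 23.9, 31.8 and 18.6 CPM in EpiLC KO, against 51.4, 51.1 and 42.5 CPM in EpiLC WT. Sars2 (chromosome 7, 28741992 to 28753871, plus strand) was at 36.6, 44.4 and 40.5 CPM in EpiLC KO, against 63.3, 63.5 and 54.7 CPM in EpiLC WT. Groups did not overlap for either gene; Aars2 fell by 0.96 ± 0.213 (edgeR adjusted p = 0.0106) and Sars2 by 0.58 ± 0.107 (adjusted p = 0.00446). Both calls held without each library in turn. The partners of these enzymes, Aars and Sars, had the lowest fold changes of the cytosolic list.

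Tars2, Iars2 and Vars2 also fell, with calls that were less stable. Tars2 was at 83.8, 94.6 and 86.0 CPM in EpiLC KO, against 116, 112 and 115 CPM in EpiLC WT, and fell by 0.37 ± 0.0901 (edgeR adjusted p = 0.0166). Iars2, with 24.2% of its exon bases shared with other genes, was at 121, 121 and 118 CPM in EpiLC KO, against 170, 145 and 177 CPM in EpiLC WT, and fell by 0.45 ± 0.118 (adjusted p = 0.0245). Vars2 was at 43.4, 37.6 and 32.5 CPM in EpiLC KO, against 54.2, 56.2 and 51.8 CPM in EpiLC WT, and fell by 0.52 ± 0.149 (adjusted p = 0.0363). Groups did not overlap for these 3 genes. The Tars2 call ended without KO replicate 1 (0.0710) or KO replicate 3 (0.0547), or in a fit of the EpiLC libraries alone (0.0539). The Iars2 call ended without any 1 EpiLC library other than WT replicate 2 (0.0608 to 0.0831), and the Vars2 call without any 1 other than KO replicate 1 (0.0644 to 0.123).

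Wars2, the mitochondrial tryptophan enzyme, stood at the other end of its list. It was at 13.5, 14.5 and 12.6 CPM in EpiLC KO, against 8.92, 7.77 and 11.0 CPM in EpiLC WT. All KO libraries lay above all WT libraries, but the log2 fold change of 0.55 ± 0.190 did not pass by edgeR (adjusted p = 0.069), whereas DESeq2 called it (adjusted p = 0.0322). Fars2 (-0.41, edgeR adjusted p = 0.0608) and Cars2 (-0.41, adjusted p = 0.0812) were lower in every KO library without passing. Fars2, whose exons overlap Lyrm4 and Nrn1, passed without KO replicate 3 (adjusted p = 0.0457), without WT replicate 2 (0.0419) and by DESeq2 (0.0165). In all, 7 of 16 mitochondrial genes lay wholly lower in KO and 1 wholly higher, against 17.2% and 16.1% of all genes. The other 8 had overlapping groups, with log2 fold changes from -0.17 (Lars2) to 0.32 (Mars2).

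Set side by side for the same amino acid, the cytosolic gene had the lower fold change in 11 of 13 pairs in EpiLCs, with a median difference of -0.48 on the log2 scale. The phenylalanine, glutamate and proline enzymes have no single cytosolic gene of their own and were left out. The widest pairs were methionine (Mars -0.84, Mars2 0.32), asparagine (Nars -0.89, Nars2 0.11) and tyrosine (Yars -0.94, Yars2 -0.11). In the alanine pair both members were low (Aars -1.04, Aars2 -0.96), and in the threonine and valine pairs the mitochondrial gene had the lower value (Tars2 -0.37, Tars -0.19; Vars2 -0.52, Vars -0.49). In naive cells the cytosolic gene was lower in 8 of 13 pairs, with a median difference of -0.09. These differences between genes were not tested, since the members were chosen with results known.

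**Figure D3:**
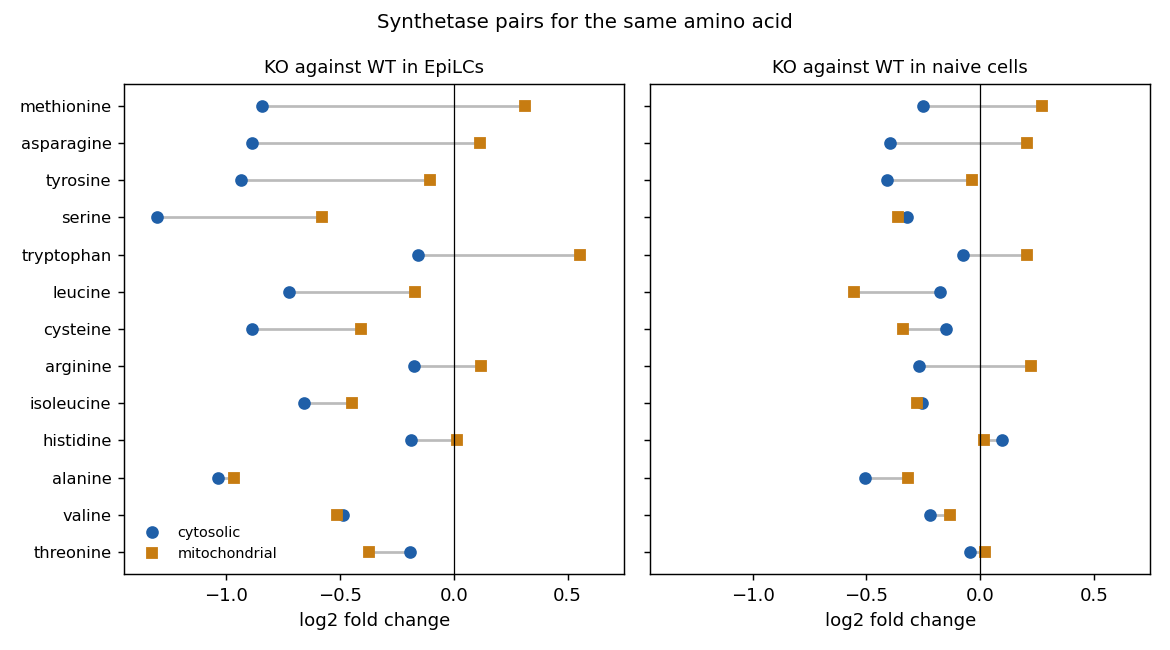
Log2 fold changes, KO against WT, of the cytosolic (circles) and mitochondrial (squares) synthetase for 13 amino acids, in EpiLCs (left) and in naive cells (right). In EpiLCs the circle lies left of the square in 11 of 13 pairs, and in naive cells in 8 of 13.

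Averaged as log2 CPM, the 20 cytosolic genes stood at 7.95, 7.95 and 7.97 in EpiLC KO, against 8.63, 8.26 and 8.54 in EpiLC WT. The 16 mitochondrial genes stood at 5.16, 5.22 and 5.21 in EpiLC KO, against 5.46, 5.28 and 5.38 in EpiLC WT. Neither mean overlapped between the EpiLC groups, and EpiLC WT replicate 2 was nearest to KO in both. The cytosolic mean minus the mitochondrial mean was 2.79, 2.73 and 2.77 in EpiLC KO, against 3.17, 2.97 and 3.15 in EpiLC WT. In naive KO it was 2.71, 2.89 and 2.74, against 2.82, 3.00 and 2.88 in naive WT, and those groups overlapped. EpiLC WT replicate 2 had 27146744 counts, the fewest of the 12 libraries.

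Promoter sequence was compared because CARE is the element through which ATF4 acts. RefSeq promoter windows on GRCm38.p6, each 250 bases before to 50 bases after a transcription start, were matched to 30 of the 39 genes. The motif TGATGNAA, searched on both strands, was present in 5 of 13 cytosolic genes, 0 of 14 mitochondrial genes and 0 of 3 scaffold genes, and in 4.51% of all 27025 genes with a window. Of the cytosolic genes that fell in EpiLC KO it was in 4 of 8, and of those that did not pass in 1 of 5. The E-box CACGTG was in 4 of 13 cytosolic and 1 of 14 mitochondrial genes, against 8.09% of all genes, and the cyclic AMP element TGACGTCA in 0 of 30, against 2.03%. Split in the same way, the E-box was in 3 of 8 cytosolic genes that fell and in 1 of 5 that did not pass. No E-box match overlapped a CARE match. A CARE match of each of the 5 genes is shown with 10 bases on each side, 5′ to 3′ on the strand of the gene with the motif in capitals, since CARE was the motif present in cytosolic windows and in none of the mitochondrial ones:
Aars, chr8:111033841-111033868, plus strand, at base 10 of the transcript: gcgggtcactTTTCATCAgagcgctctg
Gars, chr6:55037961-55037988, plus strand, 30 bases before the start: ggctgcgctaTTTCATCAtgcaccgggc
Iars, chr13:49682127-49682154, plus strand, at base 8 of the transcript: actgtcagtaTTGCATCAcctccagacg
Tars, chr15:11399656-11399683, minus strand, 15 bases before the start: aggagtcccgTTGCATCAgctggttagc
Yars, chr4:129189896-129189923, plus strand, at base 4 of the transcript: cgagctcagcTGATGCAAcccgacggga

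In all of these but Yars the motif was read on the opposite strand. Aars, Gars, Iars and Yars fell in EpiLC KO, and Tars did not pass. Sars, with the lowest fold change, and Aars2, the lowest of the mitochondrial list, had no match to any of the 3 motifs in their windows. Their 250 bases before the start are shown beside those of Gars, which charges tRNA in both compartments, with motif matches in capitals:
Sars, chr3:108445260-108445509, minus strand: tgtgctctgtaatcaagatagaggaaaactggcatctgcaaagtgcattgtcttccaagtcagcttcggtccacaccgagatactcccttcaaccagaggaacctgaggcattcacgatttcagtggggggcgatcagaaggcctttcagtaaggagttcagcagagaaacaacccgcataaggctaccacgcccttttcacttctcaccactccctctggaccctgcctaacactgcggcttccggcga
Gars, chr6:55037751-55038000, plus strand: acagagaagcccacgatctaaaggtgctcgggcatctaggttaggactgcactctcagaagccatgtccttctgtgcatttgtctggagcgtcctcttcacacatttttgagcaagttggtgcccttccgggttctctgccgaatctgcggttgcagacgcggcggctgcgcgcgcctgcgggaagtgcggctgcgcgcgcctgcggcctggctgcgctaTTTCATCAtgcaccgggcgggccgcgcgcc
Aars2, chr17:45506582-45506831, plus strand: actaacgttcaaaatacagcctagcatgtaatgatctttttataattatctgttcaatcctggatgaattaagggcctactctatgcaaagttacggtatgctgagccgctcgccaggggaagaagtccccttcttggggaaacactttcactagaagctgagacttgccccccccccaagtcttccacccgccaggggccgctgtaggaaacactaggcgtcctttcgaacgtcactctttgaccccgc

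A match describes the letters of a window and not occupancy by a factor, and the window of a gene without a match says nothing of elements elsewhere.

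Genes of the ATF4 response moved beside the cytosolic synthetases in EpiLCs. Of 22 genes, Atf4 and its targets other than synthetases, 16 fell and 0 rose, against 7.86% and 7.22% of all genes tested. The median log2 fold change of the list was -1.40. Atf4 was at 185, 173 and 194 CPM in EpiLC KO, against 648, 494 and 610 CPM in EpiLC WT, and fell by 1.66 ± 0.172 (edgeR adjusted p = 0.000172). Asns, asparagine synthetase, fell by 1.18 ± 0.109 (adjusted p = 9.06e-05), Shmt2, the mitochondrial serine hydroxymethyltransferase, by 1.52 ± 0.211 (0.000912) and Nupr1, a stress-induced regulator, by 3.33 ± 0.430 (0.00058). The list mean was 5.55, 5.36 and 5.49 log2 CPM in EpiLC KO, against 6.98, 6.50 and 7.03 in EpiLC WT, so WT replicate 2 was again nearest to KO. In naive cells the highest values of this mean and of the cytosolic synthetase mean were both in replicate 2, in KO and in WT. The same held for the mitochondrial synthetase mean, with values closer together (5.35, 5.37 and 5.31 in naive KO, and 5.41, 5.43 and 5.35 in naive WT). In naive cells 2 of the 22 genes fell (median -0.43), against 4.95% of all genes tested. The count of 2 varied with the setting. It was 0 when replicate 1 of naive KO, or replicate 2 or 3 of naive WT, was left out, 4 without replicate 1 of naive WT, 4 by DESeq2 and 7 without the filter on low counts. The part of ATF4 in the synthetase result was not tested.

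**Figure D4:**
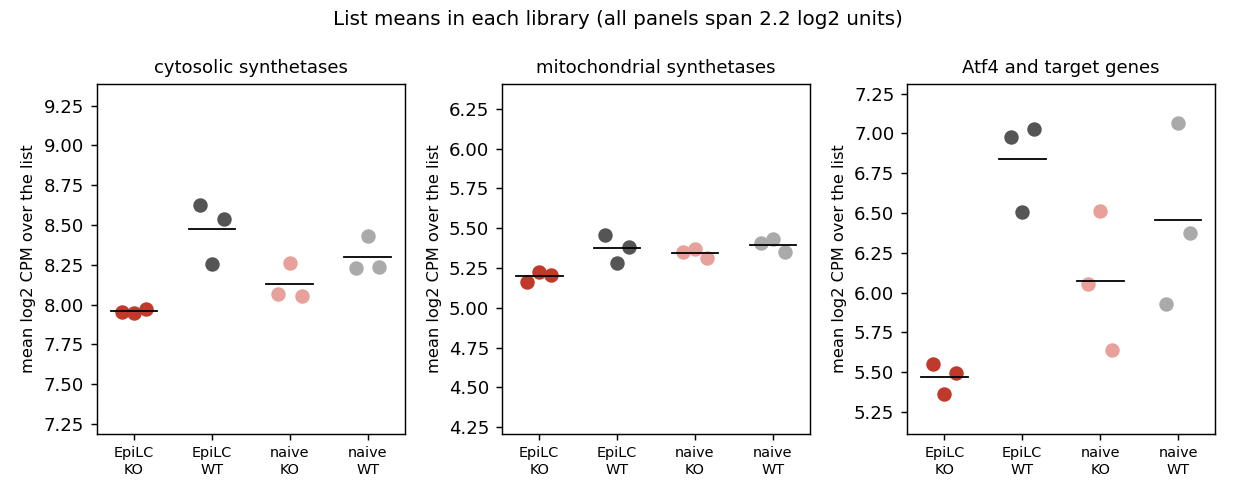
Mean log2 CPM over the cytosolic synthetases (20 genes), the mitochondrial synthetases (16) and Atf4 with its other targets (22) in each library; lines mark group means of 3 libraries, and all 3 panels span the same range. The EpiLC KO libraries are the lowest in every panel, and the mitochondrial panel has the least spread.

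Genes of neighbouring steps of translation were counted in the same way, beside 7.86% of all genes tested that fell and 7.22% that rose. Of 77 mitochondrial ribosomal protein genes tested, 10 fell and 0 rose (median -0.14), with 5 calls without EpiLC KO replicate 1 and 6 in a fit of the EpiLC libraries alone, led by Mrps24 (-1.19 ± 0.172, edgeR adjusted p = 0.0012) and Mrpl38 (-0.70 ± 0.103, adjusted p = 0.00126). Mrps12, which lies next to Sars2 on the opposite strand, fell by 0.47 ± 0.141 (adjusted p = 0.0415), a call that ended without KO replicate 1, KO replicate 2, WT replicate 1 or WT replicate 2 (adjusted p up to 0.159), in a fit of the EpiLC libraries alone and with the replicate number as a block. Gatb, a subunit of the mitochondrial amidotransferase that makes glutaminyl-tRNA, rose by 0.74 ± 0.190 (edgeR adjusted p = 0.0214). Gatb was at 32.4, 36.5 and 47.7 CPM in EpiLC KO, against 28.3, 19.3 and 22.0 CPM in EpiLC WT. The groups did not overlap, but the call ended without KO replicate 3, WT replicate 2 or WT replicate 3 (adjusted p up to 0.0855). Of 9 mitochondrial translation factors Gfm2, a ribosome recycling factor, fell by 0.44 ± 0.0884 (adjusted p = 0.00663). Of 6 cytosolic elongation factors Eef2 fell by 0.34 ± 0.0806 (adjusted p = 0.0147, and 0.0504 without KO replicate 2).

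Endoderm markers also differed between the EpiLC groups. Summed over 8 genes they were at 33.5 to 44.3 CPM in EpiLC KO, against 7.07 to 13.9 in EpiLC WT. Of the 7 that were tested 6 rose, against 7.22% of all genes tested. The fibroblast and feeder sum over 5 genes was 14.3 to 19.2 CPM in EpiLC KO, against 4.15 to 11.6 in EpiLC WT, with 0 of 3 tested genes called. The mesoderm sum over 3 genes was 12.5 to 18.6 CPM in EpiLC KO, against 5.49 to 9.86 in EpiLC WT, and 1 of the 3 rose. Trophoblast and neuroectoderm sums overlapped between the EpiLC groups. No gene of these lists had 0 counts in a group, and of the endoderm genes 2 were under 1 CPM in EpiLC KO and 5 in EpiLC WT. Their part in the synthetase results was not tested.

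The second comparison set KO against WT in naive cells, where 9.23% of all genes were called, 4.27% higher and 4.95% lower in KO. By edgeR 0 of the 39 passed, with 5 of 20 cytosolic and 4 of 16 mitochondrial genes at an unadjusted p under 0.05, against 4278 of 18134 genes, a share close to both. DESeq2 called 3 cytosolic genes (Aars, Farsb and Rars) and 1 mitochondrial gene (Sars2). The median log2 fold change was -0.20 for the cytosolic list, -0.04 for the mitochondrial list and -0.06 for the scaffold, against 0 over all genes. The cytosolic fold changes lay between -0.51 (Aars) and 0.32 (Farsa), and 17 of 20 were below 0. Without overlap between groups, 4 cytosolic and 2 mitochondrial genes were lower in KO and 1 and 2 were higher, against 15.3% and 15.1% of all genes.

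Aars was at 493, 660.1 and 526 CPM in naive KO, against 689, 961 and 733 CPM in naive WT. It was lower in every KO library, with a log2 fold change of -0.51 ± 0.160 (edgeR adjusted p = 0.0689). Sars2 was at 45.6, 43.0 and 48.6 CPM in naive KO, against 56.0, 62.4 and 57.8 CPM in naive WT. Groups did not overlap, and its log2 fold change of -0.36 ± 0.107 had the lowest edgeR adjusted p of the 39 genes (0.0541). Aars passed without KO replicate 2 (adjusted p = 0.0379), and Sars2 without KO replicate 3 (0.0423).

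Rars (-0.27 ± 0.0852, edgeR adjusted p = 0.0716), Farsb (-0.26 ± 0.0860, adjusted p = 0.0824) and Yars (-0.41 ± 0.154, adjusted p = 0.123) were also lower in every naive KO library. Farsa was at 139, 140.2 and 143 CPM in naive KO, against 124, 102 and 112 CPM in naive WT, so it was higher in every KO library (0.32 ± 0.125, adjusted p = 0.131). Among mitochondrial genes Iars2 (-0.28 ± 0.117, adjusted p = 0.173), Cars2 (-0.34 ± 0.148, adjusted p = 0.186) and Ears2 (0.25 ± 0.114, adjusted p = 0.202) followed Sars2. Iars2 passed without naive WT replicate 2 (adjusted p = 0.0267). Lars2 had the lowest fold change of that list, -0.56 ± 0.304 (adjusted p = 0.297), and Mars2 the highest, 0.27 ± 0.152 (adjusted p = 0.307). Lars2 was at 238, 210.5 and 279 CPM in naive KO, against 238, 585 and 248 CPM in naive WT, so its value rested on WT replicate 2, without which the fold change was -0.03.

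The next comparisons followed each genotype from naive cells to EpiLCs. In KO clones 27.1% of all genes rose and 28.1% fell, and in WT clones 26.4% rose and 26.3% fell. Of the cytosolic synthetases, 4 rose and 5 fell in KO (median -0.23), and 6 rose and 2 fell in WT (median 0.15). Of the mitochondrial ones, 1 rose and 5 fell in KO (median -0.03), and 3 rose and 3 fell in WT (median 0.09). In either direction that is 9 of 20 and 6 of 16 in KO, against 55.2% of all genes, and 8 of 20 and 6 of 16 in WT, against 52.7%. Without overlap between conditions, 5 cytosolic genes were higher and 7 lower in KO (31.4% and 32.9% of all genes), and 5 were higher and 2 lower in WT (29.3% and 29.9%). The KO and WT transitions share no library, and their difference is the interaction given further on.

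Kars rose in both genotypes. It was at 570.1, 652 and 627 CPM in EpiLC KO, against 349, 348 and 393 CPM in naive KO, a log2 fold change of 0.76 ± 0.0903 (edgeR adjusted p = 1.64e-05). In EpiLC WT it was at 794, 676 and 710.4 CPM, against 394, 373 and 359.8 CPM in naive WT, a change of 0.95 ± 0.0905 (adjusted p = 3.13e-06). EpiLC and naive libraries did not overlap in either genotype. Hars rose by 0.23 ± 0.0796 in KO (adjusted p = 0.0271) and by 0.51 ± 0.0798 in WT (adjusted p = 0.000164), and Vars by 0.32 ± 0.119 in KO (adjusted p = 0.035) and by 0.59 ± 0.120 in WT (adjusted p = 0.00118). Farsb rose by 0.24 ± 0.0860 in KO (adjusted p = 0.0307) and by 0.40 ± 0.0860 in WT (adjusted p = 0.00193). In KO the calls of Hars, Vars and Farsb each ended without 1 or more single libraries (adjusted p up to 0.0896, 0.107 and 0.0942), and those of Hars and Farsb also without the filter on low counts (0.217 and 0.165). Hars shares 8.0% of its exon bases with Hars2.

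Qars and Dars fell in both genotypes. Qars was at 163, 191 and 176 CPM in EpiLC KO, against 351, 365 and 361 CPM in naive KO, a change of -1.02 ± 0.106 (edgeR adjusted p = 5.18e-06). In EpiLC WT it was at 274, 259.9 and 235 CPM, against 436, 337 and 362 CPM in naive WT, a change of -0.56 ± 0.105 (adjusted p = 0.000666). Neither pair of groups overlapped. Dars fell by 0.52 ± 0.118 in KO (adjusted p = 0.0023) and by 0.54 ± 0.118 in WT (adjusted p = 0.00205).

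Lars and Farsa were called in WT alone, with rises of 0.62 ± 0.162 (edgeR adjusted p = 0.00638) and 0.39 ± 0.125 (adjusted p = 0.0184), against 0.07 and 0.09 in KO. Sars, Cars and Mars were called in KO alone. Sars was at 159.7, 169 and 174 CPM in EpiLC KO, against 279, 350.0 and 265 CPM in naive KO, and fell by 0.83 ± 0.195 (adjusted p = 0.00284), while its change in WT was 0.15 ± 0.193 (adjusted p = 0.533). Cars fell by 0.60 ± 0.178 in KO (adjusted p = 0.0118, and 0.0538 without naive KO replicate 2), and its change in WT was 0.14. Mars fell by 0.48 ± 0.176 in KO (adjusted p = 0.0338), a call that ended with the clone as a block (0.0551) and without any EpiLC KO replicate or naive KO replicate 2 (0.0598 to 0.172). In WT, Cars (0.34, adjusted p = 0.035) and Iars (0.34, adjusted p = 0.0289) passed without EpiLC WT replicate 2, and Nars (0.48, adjusted p = 0.0479) without naive WT replicate 2. The Farsa call ended in a fit of the WT libraries alone (0.0579), without EpiLC WT replicate 1 (0.0923) and when replicate 2 (0.0879) or 3 (0.0573) of naive WT was left out.

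Of the mitochondrial genes, Yars2 rose in both genotypes. It was at 59.1, 54.3 and 59.5 CPM in EpiLC KO, against 36.8, 34.2 and 32.0 CPM in naive KO, a change of 0.75 ± 0.0997 (edgeR adjusted p = 4.33e-05). In EpiLC WT it was at 64.6, 57.6 and 64.0 CPM, against 35.6, 32.9 and 37.0 CPM in naive WT, a change of 0.82 ± 0.0998 (adjusted p = 2.33e-05). Its cytosolic partner Yars did not pass in either genotype (-0.35 in KO and 0.18 in WT), although in KO it passed in a fit of the KO libraries alone (adjusted p = 0.0353) and without the filter on low counts (0.0224). Wars2 was at 13.5, 14.5 and 12.6 CPM in EpiLC KO, against 25.6, 23.7 and 29.6 CPM in naive KO, and fell by 0.96 ± 0.189 (adjusted p = 0.000878). In EpiLC WT it was at 8.92, 7.77 and 11.0 CPM, against 17.3, 28.2 and 22.9 CPM in naive WT, and fell by 1.30 ± 0.192 (adjusted p = 0.000108), the lowest fold change of the mitochondrial list in that comparison. Mars2 fell by 0.65 ± 0.152 in KO (adjusted p = 0.00284) and by 0.69 ± 0.153 in WT (adjusted p = 0.00212).

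Aars2 was at 23.9, 31.8 and 18.6 CPM in EpiLC KO, against 48.3, 61.1 and 37.8 CPM in naive KO, with no overlap. Clone 2 was the highest and clone 3 the lowest in both conditions. Aars2 fell by 0.99 ± 0.213 in KO (edgeR adjusted p = 0.00166), and its change in WT of -0.34 ± 0.210 (adjusted p = 0.194) passed with the clone as a block (adjusted p = 0.0187). With that block 9 mitochondrial genes were called in WT instead of 6, the others being Rars2 (0.26, adjusted p = 0.0385) and Vars2 (0.27, adjusted p = 0.0226). Tars2 rose by 0.41 ± 0.0902 in WT (adjusted p = 0.00217), against 0.01 in KO. Of the scaffold genes Aimp2 rose in both, by 0.39 ± 0.112 in KO (adjusted p = 0.00975, and 0.0669 without the filter on low counts) and by 0.42 ± 0.112 in WT (adjusted p = 0.00691).

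Calls of the remaining mitochondrial genes depended on single libraries and on the processing. Ears2 (0.36) and Pars2 (-0.48) were called in WT, with adjusted p up to 0.0602 and 0.0728 without 1 library. Pars2 (-0.46) and Fars2 (-0.37) were called in KO, with adjusted p up to 0.103 and 0.151. In WT the Ears2 call ended without EpiLC replicate 1 or naive replicate 1 or 3, and the Pars2 call without EpiLC replicate 2 or 3 or naive replicate 1. In KO the Pars2 call ended without EpiLC replicate 1 or 2 or naive replicate 1 or 3, and the Fars2 call without any 1 library other than EpiLC replicate 3. These calls also ended without the filter on low counts. The edgeR adjusted p were then 0.0973 (Ears2 in WT), 0.0675 (Pars2 in WT), 0.0586 (Pars2 in KO) and 0.116 (Fars2 in KO). The Fars2 call ended as well with RLE size factors (0.0524) and in a fit of the KO libraries alone (0.0798). In KO the Hars call ended without EpiLC replicate 2 or naive replicate 1, the Vars call without EpiLC replicate 1 or 3 or naive replicate 2 or 3, and the Farsb call without EpiLC replicate 2 or 3 or naive replicate 1 or 3.

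**Figure D5:**
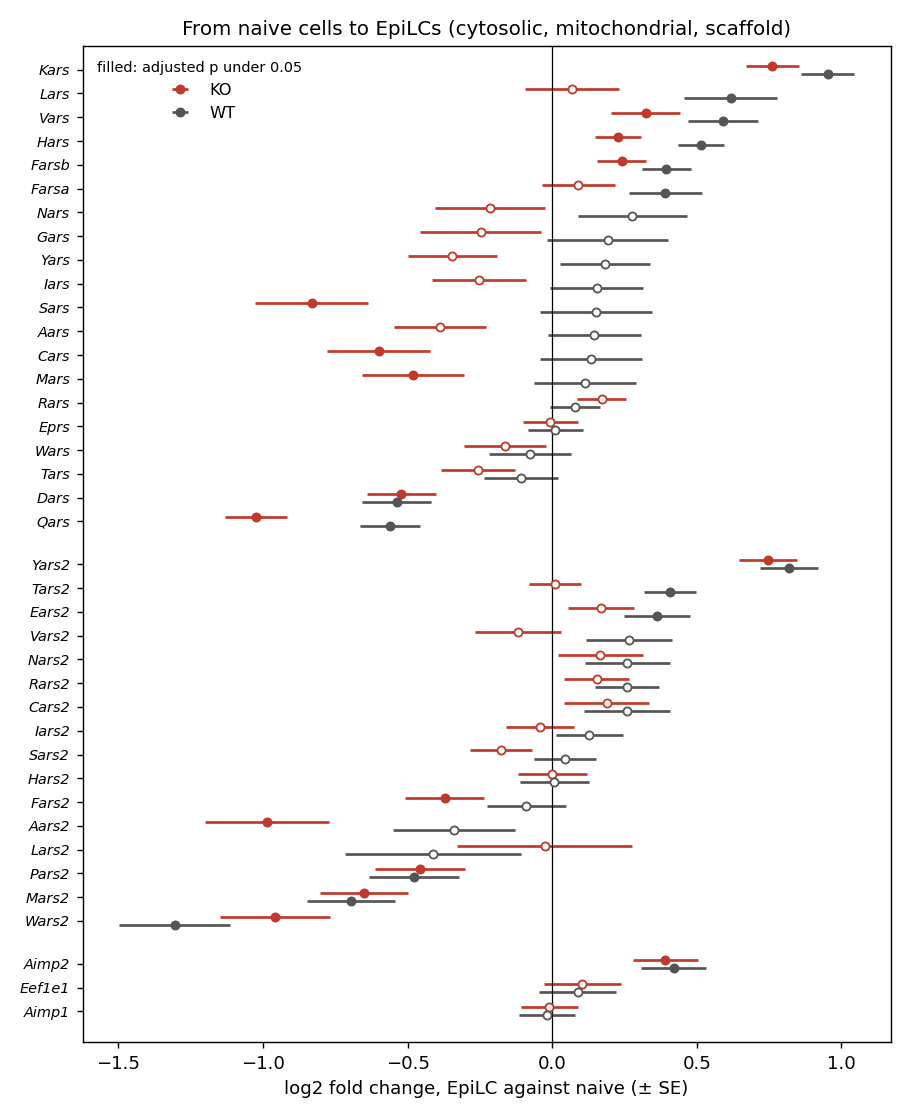
Log2 fold change from naive cells to EpiLCs of each gene in KO (upper point of each row) and WT (lower point), with standard errors (3 libraries per group); filled points passed at an adjusted p under 0.05. Kars and Yars2 lie right of 0 and Qars, Dars and Wars2 left of 0 in both genotypes, while Sars is at -0.83 in KO and 0.15 in WT.

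The last comparison asked whether the KO effect differed between EpiLCs and naive cells. This interaction was called for 0.381% of all genes (0.121% negative) and for 0 of the 39 by edgeR, with 8 of 20 cytosolic and 2 of 16 mitochondrial genes at an unadjusted p under 0.05, against 2236 of 18134 genes, a share close to the mitochondrial one. DESeq2 called 1 of them, Sars (adjusted p = 0.0495). The median was -0.35 for the cytosolic list, -0.10 for the mitochondrial list and 0.01 for the scaffold, against -0.01 over all genes. The cytosolic values ranged from -0.98 (Sars) to 0.09 (Rars), and 18 of 20 lay below 0.

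Sars had an interaction of -0.98 ± 0.274 (edgeR adjusted p = 0.160), Qars of -0.46 ± 0.148 (adjusted p = 0.205), Cars of -0.74 ± 0.251 (adjusted p = 0.234), Hars of -0.29 ± 0.113 (adjusted p = 0.322) and Yars of -0.53 ± 0.218 (adjusted p = 0.341). Without EpiLC WT replicate 2 both Sars (-1.18, edgeR adjusted p = 0.0336) and Cars (-0.95, adjusted p = 0.0277) passed, and so did they without the filter on low counts (Sars -1.01, adjusted p = 0.000477; Cars -0.76, adjusted p = 0.0137). Among mitochondrial genes the values were -0.40 ± 0.127 for Tars2 (adjusted p = 0.207), -0.65 ± 0.298 for Aars2 (adjusted p = 0.405), -0.38 ± 0.211 for Vars2 (adjusted p = 0.498) and -0.28 ± 0.193 for Fars2 (adjusted p = 0.602). The highest was Lars2, at 0.39 ± 0.428 (adjusted p = 0.776). With the filter and all 12 libraries, edgeR thus did not show the KO effect of any 1 of the 39 genes to differ between the conditions, and for Sars and Cars this depended on those settings.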

How the data were processed

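The authors deposited raw counts per gene; per the file headers they came from featureCounts 2.0.1 and GENCODE vM25. The submitters' processing notes name fastp, FastQC, STAR and DESeq2 and the build GRCm38/mm10. Libraries were made with a stranded mRNA kit, per the labels' protocols, but the header shows no strand option, so overlapping genes on either strand are uncertain; 15 of the 39 genes share exon bases with a neighbour. Exon lengths in bp were used only for CPM per kb. Unnamed genes (346) took at most 0.0312% of a library's counts. Every column of counts was used.

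Counts were scaled by TMM and filtered with filterByExpr (minimum count 10, total 15) in edgeR 4.0.16 (R 4.3.3). A single quasi-likelihood fit over 12 libraries with 4 group means (8 residual degrees of freedom) gave 5 contrasts, with Benjamini-Hochberg adjustment over 18134 genes. SE is the log2 fold change divided by the square root of F. DESeq2 1.42.0 was an alternative. On simulated counts 91.4% of changed genes were recovered for KO against WT in EpiLCs. Recovery at the fold changes and the spread between clones of the synthetase genes was not tested. RefSeq promoters came from GRCm38.p6. Figures used matplotlib.

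Members and lists were chosen with earlier results of these data known. The named genes were those with the smallest adjusted p of each list and the highest and lowest fold changes. Within a genotype, EpiLC and naive libraries with the same number deviated together (r of 0.145 to 0.264), so the number marks a clone there; KO and WT libraries of the same number did not (r of -0.266 to 0.004). P-values measure the spread between clones, pooled over the 4 groups, and counts limit precision only through counting error. The fit treated the EpiLC and naive libraries of a clone as independent. For KO against WT in EpiLCs, a fit of the EpiLC libraries alone called 1975 genes, against 2734 in the main fit. The main fit did not use the pairing, so its transition and interaction p-values do not measure the spread of change within clones. A gene and 1 sequence are not reported here.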

Additional observations from a re-analysis of the deposited data

How the results depend on the processing

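No call of a member changed direction under any alternative. In EpiLC KO against WT, 12 cytosolic genes fell under RLE size factors, no filter, DESeq2, a fit of those groups alone and the replicate block, and 9 to 12 when 1 library was left out; the mitochondrial count was 3 to 5 without 1 library, 5 with the replicate block and 7 by DESeq2. Of the 17 calls, 11 held in every setting. All genes called in that comparison numbered 1375 (without EpiLC KO replicate 1) to 3117 (without EpiLC WT replicate 2), against 2734. In naive cells the cytosolic count of 0 became 2 without a filter, 3 by DESeq2 and 0 to 1 without 1 library, and the mitochondrial count of 0 became 1 under RLE, without a filter and by DESeq2 and 0 to 1 without 1 library. The naive count over all genes was 1673, 2516 by DESeq2 and 678 (without naive KO replicate 1) to 1744 without 1 library. For the interaction the cytosolic count of 0 became 2 without a filter, 1 by DESeq2 and 0 to 2 without 1 library (2 without EpiLC WT replicate 2). Over all genes the interaction count was 69, 564 without a filter, 516 by DESeq2, 228 with the replicate block and 3 (without EpiLC KO replicate 1) to 149 (without EpiLC WT replicate 2) without 1 library; a fit of only some groups was not run for it. From naive to EpiLC, 7 to 10 cytosolic and 4 to 6 mitochondrial genes were called in WT without 1 library, and 6 to 8 and 4 to 6 in KO; the cytosolic count in KO, 9, became 10 by DESeq2 and 11 in a fit of the KO libraries alone, which added Aars and Yars. The replicate block paired the libraries of each clone from naive to EpiLC and for the interaction. For KO against WT it joined KO and WT clones of the same number, which did not deviate together, so it checks little there. With the replicate block the mitochondrial count in WT was 9 against 6, and it moved no other count of the 2 synthetase lists by over 1.5 times. The cause of these changes was not tested. Lists of other genes were recounted as an addition chosen after seeing the data: the ATF4 list had 11 to 16 calls in EpiLCs without 1 library, and the mitochondrial ribosomal proteins 5 to 12. Wars2 at 7.77 CPM was among the least counted members, and 3 clones per group limit what can be called.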
